A study of Mus musculus with 6 samples.

Results

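The genes described here are 33 members of the type I interferon response, the set of antiviral and regulatory genes that a cell switches on when it senses interferon-alpha or interferon-beta. They were measured in lung RNA from adult female mice. In one group, AKR_F1, the mice were F1 animals of AKR/J and FVB/NJ; in the other, DBA_F1, they were F1 animals of DBA/2J and FVB/NJ. Each group had 3 arrays, all animals carried an FVB/NJ chromosome set, and no treatment other than Avertin anaesthesia at death is given. The comparison addresses basal differences in expression between the genotypes. The labels do not say that the 3 arrays of a group came from separate animals, so p-values measure the difference against the spread between these arrays, which may be technical.

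Members were the probe sets (groups of short probes for one transcript region) that the platform annotation gives a single gene symbol from the list, which found 49 probe sets for 31 of the 33 genes. Isg15 was represented only by a probe set with several symbols, and Ifi44 had no single-symbol probe set, so the signal of both was not analysed here, while both entered the promoter search. Of the 31 genes, 29 had a brightest probe set above the level used for testing (a mean log2 signal of 4.72), out of 13202 genes tested. Oas3 and Mx1 lay below it. A gene is described by its probe set with the highest mean over the 6 arrays, and 13 genes had more than 1 probe set. Values are log2 signals, so a difference of 1 is a doubling, and every difference is AKR_F1 minus DBA_F1.

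Type I interferons bind the receptor made of IFNAR1 and IFNAR2, whose kinases JAK1 and TYK2 activate the transcription factor complex ISGF3. This complex includes STAT2 and IRF9 and binds a short promoter element called the interferon-stimulated response element. Low tonic interferon signalling keeps many of these genes expressed in unchallenged tissue, and lung epithelium, endothelium and resident leukocytes all carry the receptor.

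The core of that element was searched in RefSeq promoter windows of the GRCm38.p6 assembly, from 250 bases before to 50 bases after a gene's start. The letters were GAAA, NN and GAAA in a row (TTTC, NN and TTTC when read on the other strand), where N is any base, and matches could overlap. Windows were found for 23 members. A match was present in 11 of them (47.8%), against 3.99% of all 27025 genes with a window. In 9 of the 11 at least 1 match lay before the start; in Ifih1 and Eif2ak2 the match lay after it. The interferon-gamma activated sequence TTCNNNGAA, which reads the same on both strands, was present in 5 of 23 (21.7%) against 9.55% of all genes; in 1 member it overlapped a match to the first element. The last 160 bases before the start follow for 4 members that stand for the patterns described next: Ifit1 and Bst2, with AKR_F1 arrays above DBA_F1, Rsad2, with the opposite sign, and Xaf1, with the largest difference. Capitals mark matches to the response element core, in this reference sequence and not in the strains measured.
Ifit1 (chr19:34640729-34640888, plus strand): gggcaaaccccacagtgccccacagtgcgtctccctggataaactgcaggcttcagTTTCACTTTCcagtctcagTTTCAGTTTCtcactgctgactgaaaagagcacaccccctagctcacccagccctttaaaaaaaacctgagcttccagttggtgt
Bst2 (chr8:71537473-71537632, minus strand): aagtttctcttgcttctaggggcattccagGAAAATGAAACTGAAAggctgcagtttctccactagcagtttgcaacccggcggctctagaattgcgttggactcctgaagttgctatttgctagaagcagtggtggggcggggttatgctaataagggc
Rsad2 (chr12:26456453-26456612, minus strand): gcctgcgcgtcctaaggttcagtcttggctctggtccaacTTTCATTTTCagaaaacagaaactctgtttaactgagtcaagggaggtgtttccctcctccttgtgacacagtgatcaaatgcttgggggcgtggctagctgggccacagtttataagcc
Xaf1 (chr11:72301469-72301628, plus strand): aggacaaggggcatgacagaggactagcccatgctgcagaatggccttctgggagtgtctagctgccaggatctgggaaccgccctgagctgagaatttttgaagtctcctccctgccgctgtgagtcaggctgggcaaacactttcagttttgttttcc
Ifit1 holds 2 separate matches, Bst2 holds 2 that overlap, Rsad2 holds 1 and the Xaf1 window holds 0, which says only that these letters are not in this window.

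Xaf1 was the member that differed by its brightest probe set, and its probe sets differed in opposite directions. XAF1 is an interferon-inducible protein that binds the apoptosis inhibitor XIAP. By the brightest probe set the signal was 8.98, 9.09 and 8.91 on the AKR_F1 arrays and 8.08, 8.13 and 8.0 on the DBA_F1 arrays. Every AKR_F1 array was above every DBA_F1 array. The difference was 0.92 ± 0.066 (SE), a 1.89-fold higher signal in AKR_F1 (limma adjusted p = 0.00109, n = 3 per group). The other probe set read 4.37, 4.14 and 4.31 in AKR_F1 and 8.38, 8.10 and 8.25 in DBA_F1. All 3 AKR_F1 arrays were low and all 3 DBA_F1 arrays were high, a difference of -3.97 ± 0.10 (limma adjusted p = 9.94e-06). The AKR_F1 values of this probe set were under the testing level of 4.72 and may be background. It passed that level only through DBA_F1, so its fold is uncertain. The mean of both probe sets therefore had the sign of the second one (-1.53, limma adjusted p = 0.000206), and its size is uncertain too. By the brightest probe set the difference was 0.84 with AKR_F1 replicate 3 alone against DBA_F1 (adjusted p = 0.0545). That fit took its spread from the 3 DBA_F1 arrays only and assumes that the lone AKR_F1 array varies like them. With the adipose marker mean as a covariate the difference was 1.06 (limma adjusted p = 0.967). That mean does not overlap between the groups, so the fit separates it poorly from the group difference.

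Xaf1 lies on chromosome 11. Of the 10 nearest tested genes in the RefSeq order, 5 on each side, 0 were called. Their differences ran from -0.30 (Ggt6) to 0.32 (Spns2), and on each of them the groups overlapped.

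**Figure D1:**
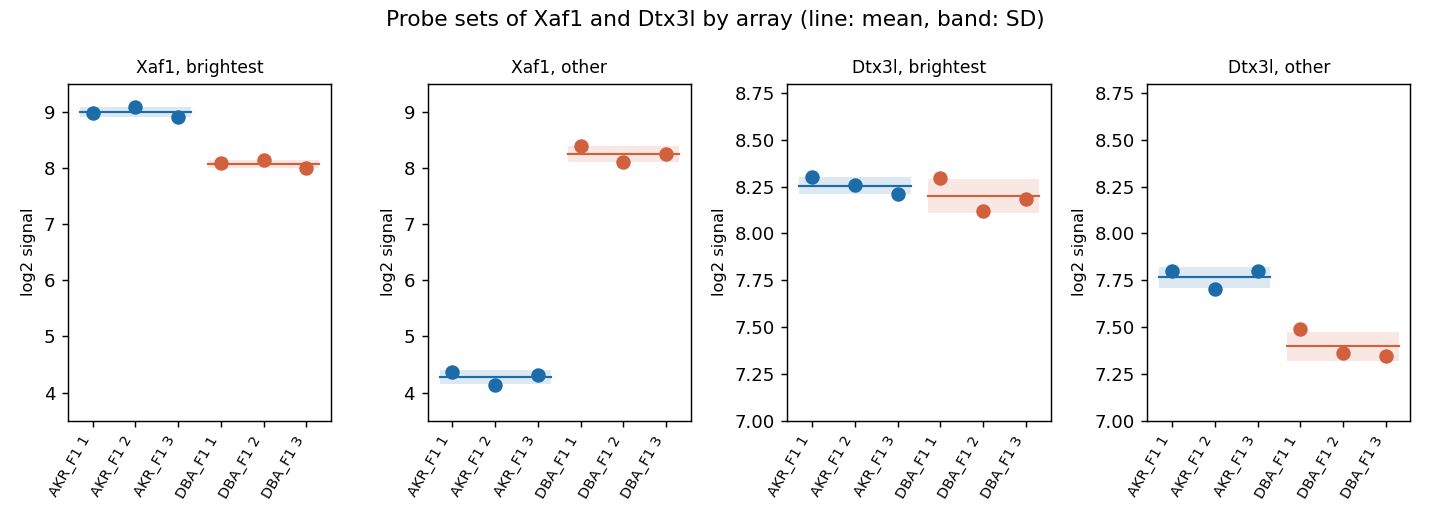
Log2 signal (vertical axis) of the 2 probe sets of Xaf1 and of Dtx3l on each of the 6 arrays (horizontal axis, blue AKR_F1, orange DBA_F1), with the group mean as a line and the SD as a band. The brightest Xaf1 probe set is higher in AKR_F1 (8.99 against 8.07), the other is far lower there (4.27 against 8.25), and of the Dtx3l probe sets only the dimmer one separates the groups.

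Across the list, Xaf1 was the single gene called at an adjusted p under 0.05 by its brightest probe set, 1 of 29 (3.45%), beside 2.48% of all tested genes. The list as a whole therefore had a share of calls near the background. Array means were above in AKR_F1 for 25 of 29 genes, beside 55.1% of all tested genes. The median difference was 0.16, beside 0.015 over all tested genes. In 13 of 29 genes all AKR_F1 arrays were above all DBA_F1 arrays (44.8%), beside 14.2% of all genes. The reverse held for 1 gene, beside 10.0% of all genes. At an unadjusted p under 0.05, 12 genes were above in AKR_F1 (10.7% of all genes were) and 1 in DBA_F1 (8.41% of all). The number above in AKR_F1 was 7 without DBA_F1 replicate 2 and also 7 without DBA_F1 replicate 3. Counting every tested probe set, 33 of 44 had the higher mean in AKR_F1. Calls were made for 3 of the 44, beside 2.62% of all tested probe sets. These were the 2 of Xaf1, with opposite signs, and the dimmer one of Dtx3l. The dimmer Xaf1 probe set passed the testing level only through DBA_F1, so nothing is read from this count beside the background share. In whole lung RNA, fewer cells of a type and less RNA per cell cannot be told apart.

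**Figure D2:**
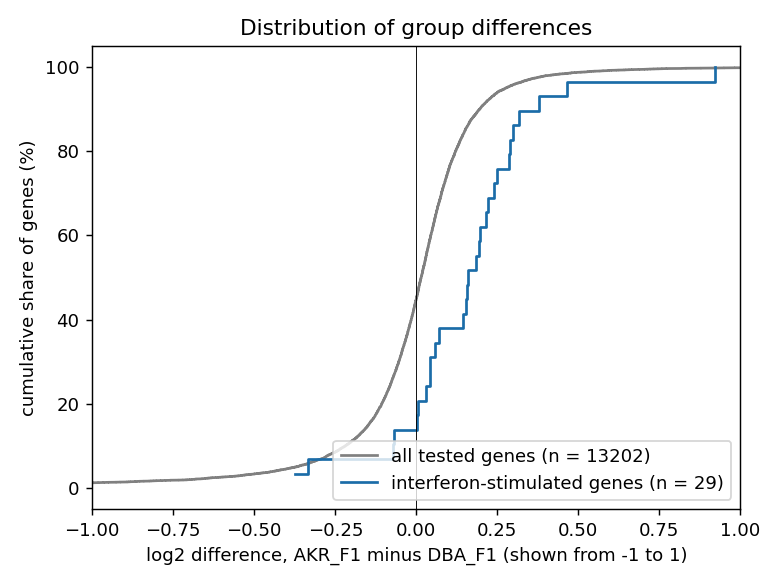
Cumulative share of genes (vertical axis, percent) by log2 difference, AKR_F1 minus DBA_F1 (horizontal axis, shown from -1 to 1), for the 29 interferon-stimulated genes (blue) and all 13202 tested genes (grey). The blue line lies to the right of the grey line through most of the range, with medians of 0.16 and 0.015.

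The arrays of a group were not alike. After each gene's mean over the 6 arrays was subtracted, the median over the 29 genes was 0.10, 0.045 and 0.073 on AKR_F1 replicates 1 to 3. It was 0 on DBA_F1 replicate 1, -0.086 on DBA_F1 replicate 2 and -0.14 on DBA_F1 replicate 3. DBA_F1 replicate 1 thus lay between the AKR_F1 arrays and the other DBA_F1 arrays, with 15 of 29 genes above their own mean, against 3 on replicate 2 and 6 on replicate 3. Without DBA_F1 replicate 1 the median difference was 0.23, and Ifit1 (0.58, limma adjusted p = 0.0309) and Rtp4 (0.47, adjusted p = 0.0383) were called beside Xaf1. That array was singled out by these same values, so a larger difference without it was built in. Dropping any other single array left Xaf1 as the only member called, with a median difference of 0.12 to 0.18. The adjusted p then reached 0.256 for Ifit1 and 0.289 for Rtp4.

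**Figure D3:**
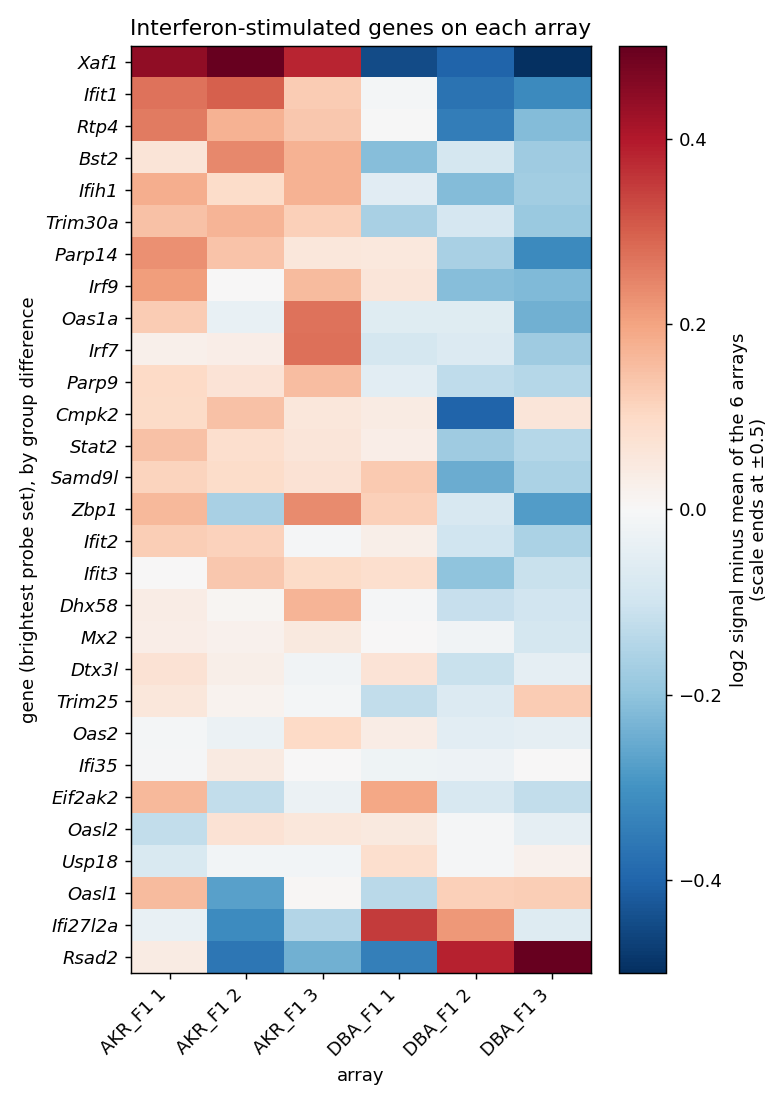
Log2 signal minus the mean of the 6 arrays (colour, red above and blue below, ends at ±0.5) for the brightest probe set of 29 genes (rows, by group difference) on each array (columns). Most upper rows are red in AKR_F1 and blue on DBA_F1 replicates 2 and 3, DBA_F1 replicate 1 is paler, and Ifi27l2a and Rsad2 at the bottom run the other way.

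Among the sensors of foreign nucleic acid, Ifih1, which encodes the cytosolic double-stranded RNA sensor MDA5, had values of 8.40, 8.30 and 8.39 in AKR_F1 and 8.16, 7.99 and 8.04 in DBA_F1. The groups did not overlap. Its difference was 0.30 ± 0.062 and missed the threshold (limma adjusted p = 0.0604). It passed only with robust eBayes (adjusted p = 0.0475) and array weights (0.0355). With 1 array left out the adjusted p was 0.0522 to 0.223. Dhx58, which encodes the helicase LGP2, differed by 0.15 ± 0.077 (adjusted p = 0.368). Its 2 other probe sets lay below the testing level. Zbp1, a sensor of Z-form nucleic acid, differed by 0.16 ± 0.14, and by 0.22 ± 0.069 with its other probe set. Neither was called, although the second separated the groups.

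The transcription factors of the pathway had small differences toward AKR_F1. Stat2, a subunit of ISGF3, read 6.74, 6.67 and 6.65 in AKR_F1 and 6.62, 6.41 and 6.45 in DBA_F1. Its difference was 0.19 ± 0.078 (limma adjusted p = 0.251), and 0.34 ± 0.073 by its other probe set (adjusted p = 0.0673). Both probe sets had every AKR_F1 array above every DBA_F1 array. Irf9, the DNA-binding subunit, differed by 0.25 ± 0.098, and Irf7, the factor that amplifies interferon-alpha production, by 0.22 ± 0.086. Neither passed (adjusted p = 0.24 for Irf9 and 0.238 for Irf7).

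The IFIT proteins bind viral RNA. Ifit1 had 7.35, 7.37 and 7.20 in AKR_F1 and 7.07, 6.71 and 6.76 in DBA_F1. DBA_F1 replicate 1 was the highest of its group and still below every AKR_F1 array. The difference of 0.46 ± 0.11 corresponds to 1.38-fold and missed the threshold (limma adjusted p = 0.0813). Its chromosome 19 relatives had smaller values, 0.16 ± 0.073 for Ifit2 and 0.15 ± 0.081 for Ifit3, with overlapping groups. Rtp4, an interferon-induced receptor transporter protein, read 8.29, 8.21 and 8.17 in AKR_F1 and 8.03, 7.69 and 7.82 in DBA_F1. Here too the groups were apart, by 0.38 ± 0.093 (adjusted p = 0.0954). The other Rtp4 probe set lay below the testing level.

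Bst2 encodes tetherin, which holds budding enveloped viruses at the cell surface. It read 8.15, 8.32 and 8.26 in AKR_F1 and 7.87, 8.0 and 7.91 in DBA_F1. The groups did not overlap, and the difference was 0.32 ± 0.066 (limma adjusted p = 0.0606). With robust eBayes Bst2 was called (adjusted p = 0.0471), and no other fit called it. With 1 array left out its adjusted p was 0.0908 to 0.195.

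**Figure D4:**
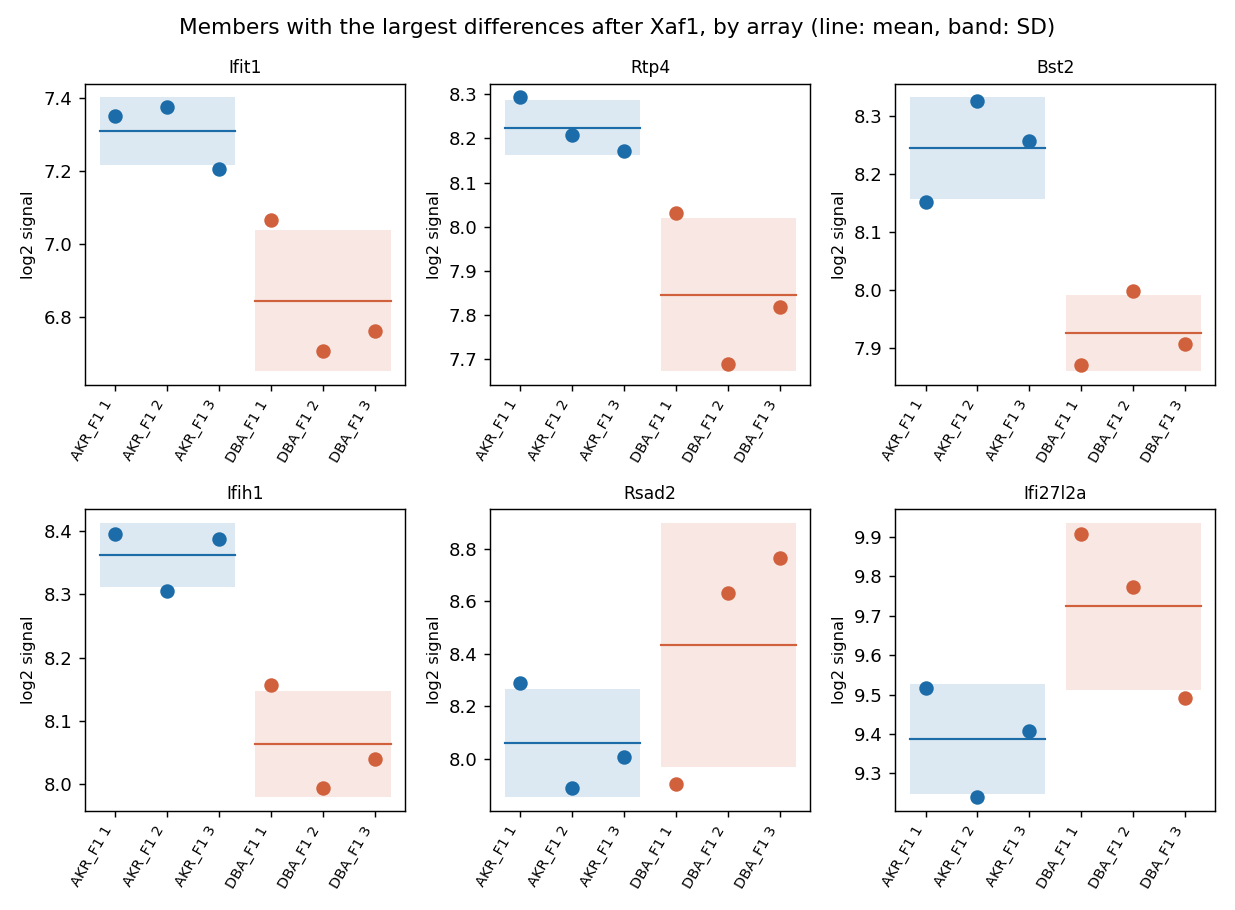
Log2 signal (vertical axis, a separate range in each panel) of the 6 members with the largest differences after Xaf1 on each array (horizontal axis, blue AKR_F1, orange DBA_F1), with the group mean as a line and the SD as a band. Ifit1, Rtp4, Bst2 and Ifih1 have every AKR_F1 array above every DBA_F1 array, while Rsad2 and Ifi27l2a have higher DBA_F1 means and overlapping groups.

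Rsad2 and Ifi27l2a had the opposite sign. Rsad2, which encodes viperin, an enzyme that makes a chain-terminating nucleotide, read 8.29, 7.89 and 8.0 in AKR_F1 and 7.90, 8.63 and 8.77 in DBA_F1. Replicates 2 and 3 of DBA_F1 were the highest arrays and DBA_F1 replicate 1 lay among the AKR_F1 arrays. The difference was -0.37 ± 0.23 (limma adjusted p = 0.426), and its 2 other probe sets gave -0.21 and -0.43. Thus DBA_F1 replicates 2 and 3, which had the lowest values of Ifit1, Rtp4 and Ifih1, had the highest values of Rsad2. Cmpk2, a nucleotide kinase gene next to Rsad2 on chromosome 12 in the RefSeq gene order, did not show this. It read 6.52, 6.56 and 6.47 in AKR_F1 and 6.46, 6.02 and 6.48 in DBA_F1, with only DBA_F1 replicate 2 low. Its difference was 0.20 ± 0.13, and its other probe set differed by -0.074 ± 0.13, so the sign was not shared.
Ifi27l2a, a small interferon-induced membrane protein gene, read 9.52, 9.24 and 9.41 in AKR_F1 and 9.91, 9.77 and 9.49 in DBA_F1. Only DBA_F1 replicate 3 lay within the AKR_F1 range. The difference was -0.34 ± 0.12 (limma adjusted p = 0.199).

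Genes of ubiquitin-like and ADP-ribose modification included the neighbours Parp14, Dtx3l and Parp9 on chromosome 16. Dtx3l encodes an E3 ubiquitin ligase that works with PARP9. Its brightest probe set read 8.30, 8.26 and 8.21 in AKR_F1 and 8.30, 8.12 and 8.18 in DBA_F1, a difference of 0.057 ± 0.063 (limma adjusted p = 0.684). The other probe set read 7.80, 7.70 and 7.80 in AKR_F1 and 7.49, 7.36 and 7.34 in DBA_F1. By that probe set alone Dtx3l was higher in AKR_F1, by 0.37 ± 0.065 (adjusted p = 0.0367). Dropping any array other than DBA_F1 replicate 1 ended this call, and the highest adjusted p was 0.156, reached when AKR_F1 replicate 1 was dropped.

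Parp9 read 8.51, 8.47 and 8.56 in AKR_F1 and 8.35, 8.28 and 8.26 in DBA_F1. Its groups were apart by 0.22 ± 0.052 (limma adjusted p = 0.093). Parp14, an ADP-ribosyltransferase gene, read 8.17, 8.08 and 8.0 in AKR_F1 and 7.99, 7.78 and 7.62 in DBA_F1. The groups were narrowly apart, with 0.29 ± 0.10 (adjusted p = 0.204). Its other probe set read 5.12, 5.0 and 4.92 in AKR_F1 and 5.32, 4.90 and 5.08 in DBA_F1, and there the groups overlapped with a difference of -0.089 ± 0.12.

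Trim30a, a TRIM protein gene, read 7.16, 7.18 and 7.14 in AKR_F1 and 6.85, 6.93 and 6.83 in DBA_F1. The difference was 0.29 ± 0.059 (limma adjusted p = 0.0586), and 0.31 ± 0.097 by its other probe set. Both probe sets separated the groups, and their mean was called (0.30, adjusted p = 0.0498). The brightest one was called with array weights (adjusted p = 0.0465) and not with the replicate block (0.113). With 1 array left out its adjusted p was 0.0783 to 0.1996. Trim25, the E3 ligase that acts on the RNA sensor RIG-I, differed by 0.042 ± 0.072. Its other probe sets gave 0.11 ± 0.070 and 0.098 ± 0.094, and none was called. Usp18, which removes ISG15 from proteins and dampens receptor signalling, read 7.39, 7.45 and 7.45 in AKR_F1 and 7.55, 7.46 and 7.48 in DBA_F1. It was the 1 gene with every DBA_F1 array above every AKR_F1 array, and the difference was not called (-0.068 ± 0.056, 95% interval -0.20 to 0.065, limma adjusted p = 0.575).

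The 2'-5'-oligoadenylate synthetases activate the ribonuclease RNase L. Oas1a read 7.58, 7.42 and 7.73 in AKR_F1 and 7.40, 7.39 and 7.22 in DBA_F1. Its groups were narrowly apart with a difference of 0.24 ± 0.095 (limma adjusted p = 0.242). The differences of the other tested members of the family lay near 0. Oas2 differed by 0.042 ± 0.073, Oasl1 by -0.071 ± 0.13 and Oasl2 by 0.0024 ± 0.073, and the interval for Oasl2 ran from -0.17 to 0.17 (95%). Oas3 lay below the testing level, at 4.40 in AKR_F1 and 4.31 in DBA_F1. Outside the list, Oas1c had every AKR_F1 array above every DBA_F1 array (0.30, limma adjusted p = 0.166), and Oas1b differed by 0.013.

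Among the remaining effectors, the probe sets of Eif2ak2, which encodes the RNA-activated kinase PKR, gave 0.0067 ± 0.11, 0.22 ± 0.12 and 0.33 ± 0.085. The first is the brightest, and the third separated the groups without being called (limma adjusted p = 0.112). Samd9l, a restriction factor gene, read 9.13, 9.11 and 9.09 in AKR_F1 and 9.15, 8.77 and 8.86 in DBA_F1, a difference of 0.18 ± 0.096. As for Ifit1, DBA_F1 replicate 1 was the highest of its group. Ifi35 had the smallest spread, with 10.24, 10.29 and 10.25 in AKR_F1 and 10.23, 10.22 and 10.25 in DBA_F1. Its 3 probe sets differed by 0.030, -0.023 and -0.013, so their signs disagreed within the error. The dynamin-like GTPases Mx1 and Mx2 restrict viral replication, and RefSeq lists both as transcribed pseudogenes in the C57BL/6J reference assembly. Mx2 differed by 0.070 ± 0.068, and Mx1 lay below the testing level at 4.33 in AKR_F1 and 4.29 in DBA_F1.

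**Figure D5:**
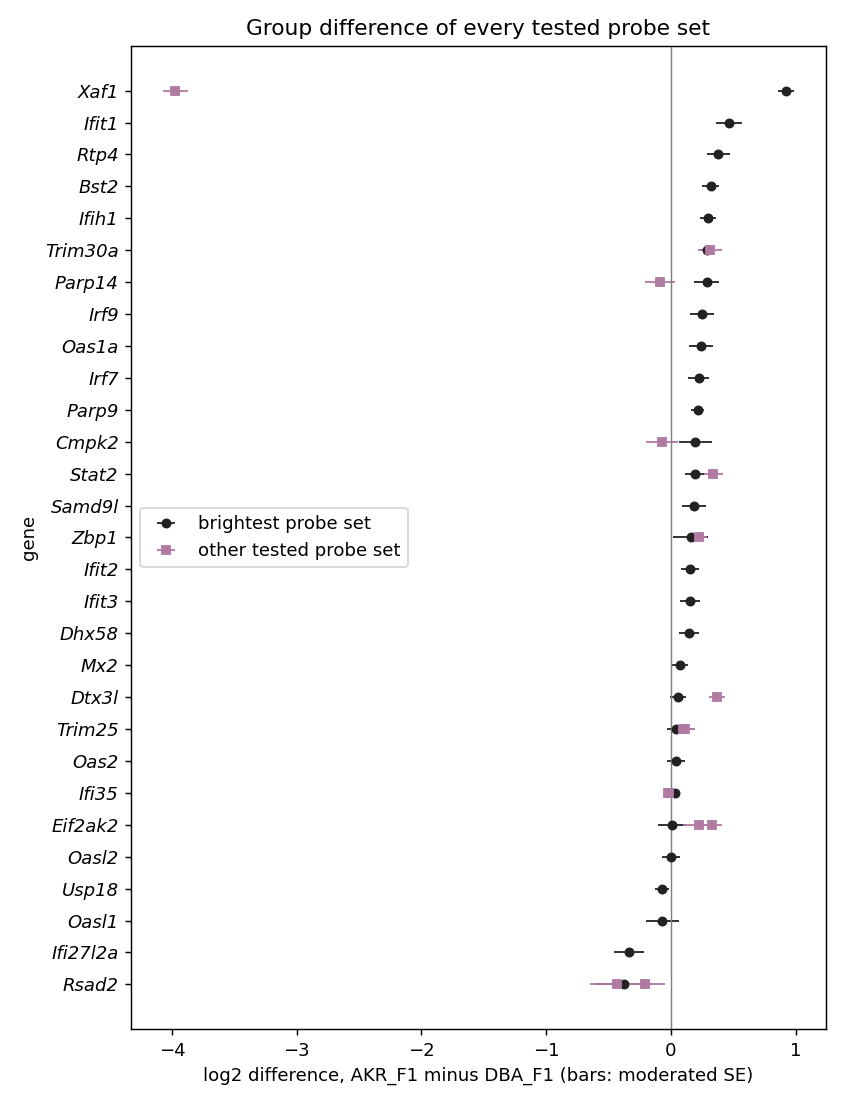
Log2 difference, AKR_F1 minus DBA_F1 (horizontal axis, bars show the moderated SE), of all 44 tested probe sets, by gene (vertical axis), with the brightest probe set of each gene as a black circle and others as purple squares. Xaf1 has probe sets at 0.92 and -3.97, most other probe sets lie between 0 and 0.5, and all those of Rsad2 and Ifi27l2a lie below 0.

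Upstream of these genes, most interferon ligands lay below the testing level. Of 19 listed ligand genes 10 had a probe set and 2 of them passed the level, Ifna2 (-0.15) and Ifnz (0.0039), with 0 called. Of 9 receptor and kinase genes 0 were called, and 8 had the higher mean in AKR_F1. Ifngr2, a chain of the interferon-gamma receptor, had the largest difference (0.32, limma adjusted p = 0.0551), and the type I receptor chains Ifnar1 and Ifnar2 had -0.060 and 0.044. Among 6 measured STAT and IRF factors outside the members, Stat3, which transduces interleukin-6 signals, was higher in AKR_F1 (0.23 ± 0.042, adjusted p = 0.0377). Dropping any 1 of the 6 arrays ended this call, and the highest adjusted p was 0.148, reached when AKR_F1 replicate 1 was dropped. Irf1 had 0.26 (adjusted p = 0.279) and Irf5 0.12.

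Of 11 measured sensing and adaptor genes 0 were called and 10 had the higher mean in AKR_F1. Tlr3, the endosomal receptor for double-stranded RNA, had 0.27, the lipopolysaccharide receptor gene Tlr4 0.21 and the adaptor gene Ticam1 0.15. Of 6 negative regulators 0 were called, and the largest difference was that of Socs1 (0.22), followed by Pias1 (0.10) and Ptpn2 (-0.050). Among 35 tested interferon-stimulated genes outside the members, 1 was called in each direction and 28 had the higher mean in AKR_F1, with a median of 0.092. Lgals9, which encodes the lectin galectin-9, read 9.92, 9.92 and 9.95 in AKR_F1 and 9.62, 9.60 and 9.58 in DBA_F1. It was higher in AKR_F1 by 0.33 ± 0.041 (limma adjusted p = 0.0105). The call was lost without AKR_F1 replicate 1 (adjusted p = 0.0663), AKR_F1 replicate 2 (0.0577) or DBA_F1 replicate 2 (0.0538). Ifitm1, which encodes a membrane protein that blocks viral entry, was higher in DBA_F1 (-0.27 ± 0.048, adjusted p = 0.038). Dropping any array other than DBA_F1 replicate 1 ended that call, and the adjusted p reached 0.151 when AKR_F1 replicate 2 was dropped. Slfn8 had the largest difference of this list (-0.42, adjusted p = 0.136).

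Lung identity and other tissues were read from marker lists. The 5 lung epithelial markers had mean log2 signals of 13.92 to 13.97 in AKR_F1 and 13.78 to 13.87 in DBA_F1, and the groups did not overlap. Of these, the surfactant protein B gene Sftpb was called (0.32 ± 0.057, limma adjusted p = 0.0371). Its call was lost without AKR_F1 replicate 1 (adjusted p = 0.151), AKR_F1 replicate 2 (0.124), DBA_F1 replicate 2 (0.0877) or DBA_F1 replicate 3 (0.0683). Sftpa1 (0.19) and Ager (0.17) had every AKR_F1 array above every DBA_F1 array, Scgb1a1 (-0.059) ran the other way, and Sftpc differed by 0.019 and read 14.26 or more on every array. Squamous epithelium markers had a mean of 4.95 to 5.02 on AKR_F1 replicates 1 and 2, against 9.65 to 10.23 on the other 4 arrays, and skeletal muscle markers split the same way. With AKR_F1 replicate 3 alone against DBA_F1 the median member difference was 0.16, and with the squamous mean as a covariate it was 0.15. Both fits rest largely on AKR_F1 replicate 3, because the squamous mean sets AKR_F1 replicates 1 and 2 apart. They are therefore not separate checks. Adipose markers (4 of 5 measured, all called) had a mean of 7.17 to 7.74 in AKR_F1 and 8.60 to 9.30 in DBA_F1. Fitted beside that mean, whose values do not overlap between the groups, the median member difference was 0.20.

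Markers of leukocytes, some of which express these genes strongly, were read beside them. The 7 measured lymphocyte markers had a mean of 7.67 to 8.42 in AKR_F1 and 7.46 to 7.66 in DBA_F1, with AKR_F1 replicate 3 highest, and 0 were called. The 3 measured natural killer cell markers had 7.64 to 8.13 in AKR_F1 and 7.96 to 8.25 in DBA_F1, and 1 of 3 had the higher mean in AKR_F1, with 0 called. The 3 measured neutrophil markers had 9.10 to 9.62 in AKR_F1 and 9.14 to 10.79 in DBA_F1. All 3 had the higher mean in DBA_F1, with the antimicrobial peptide gene Camp furthest (-0.83, adjusted p = 0.156), and 0 were called. Plasmacytoid dendritic cell markers (6 of 6 measured, 0 called) had 6.65 to 7.21 in AKR_F1 and 6.70 to 6.79 in DBA_F1. The 7 measured monocyte and macrophage markers had 8.53 to 8.79 in AKR_F1 and 8.39 to 8.78 in DBA_F1. Of these, 6 had the higher mean in AKR_F1, with a median difference of 0.14. Marco read high on DBA_F1 replicate 2 (7.79). The macrophage growth factor receptor gene Csf1r was called (0.23, limma adjusted p = 0.0439). Dropping any 1 of the 6 arrays ended this call (adjusted p 0.0737 to 0.169). The 4 endothelial markers had 10.71 to 10.85 in AKR_F1 and 10.52 to 10.63 in DBA_F1, with 0 called. The endothelial and lung epithelial means were thus above in AKR_F1 without overlap, in the direction of most members, and the adipose mean was below. The lymphocyte mean was apart only narrowly (7.67 on AKR_F1 replicate 1, 7.66 on DBA_F1 replicate 1). Among its markers only Cd8a separated the groups. Most monocyte and macrophage markers had the higher mean in AKR_F1, though the list means overlapped. The part of the lymphocyte, monocyte and macrophage, endothelial and lung epithelial lists in the members' differences was not tested.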

How the data were processed

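Total RNA of 6 lung samples, extracted with Trizol, was labelled with biotin and hybridised to Affymetrix arrays, per the labels. The deposited table holds log2 signals by probe set. MAS5 and RMA are both named in the submitters' processing notes, and which made it is not given in the sources used here. The array medians, between 5.46 and 5.49, show values already scaled between arrays, and they were used as deposited. No detection calls were used, so low signals have no stated background limit, and 3 arrays per group limit precision.

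The 64 control probe sets were dropped, as was the dimmest 40% of the others (6-array mean), leaving 27022. Of 45037 probe sets, 34945 had 1 gene symbol in the platform annotation, 932 several and 9160 none. Groups were compared with limma 3.58.1 in R 4.3.3 (lmFit, then eBayes with a trend, two-sided; 4 residual and 3.06 prior degrees of freedom), with Benjamini-Hochberg adjustment over all tested probe sets and a threshold of 0.05. The fit was tested on simulated data. Promoters came from RefSeq.

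Members and lists were chosen with earlier results of these data known, so neither is independent evidence. The text names every called member and members differing by over 0.3 or with probe sets of opposite sign. The rest are named by difference, as are up to 3 genes per pathway list besides called ones. Neighbours of Xaf1, the Ifnar chains, Oas1b and Oas1c, and the per-array values of other members were added after values were seen. Alternatives were other normalizations, filters, variance models, array weights, a replicate block, covariates, fewer arrays and other probe set summaries.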

Additional observations from a re-analysis of the deposited data

How the results depend on the processing

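The call of Xaf1 alone among the members was kept under quantile normalization, median centring, no filter, a 60% filter, no trend, the replicate block and the squamous covariate. The squamous mean sets AKR_F1 replicates 1 and 2 apart from the remaining arrays, so that fit rests largely on AKR_F1 replicate 3. The Xaf1 call was not kept with those replicates left out, a fit with 1 AKR_F1 array. Robust eBayes called 3 members and array weights 5, and both fits also called more probe sets over all genes. With the adipose covariate, whose mean does not overlap between the groups, 0 members were called. The mean of a gene's probe sets and its most variable probe set each called 2. In both, the Xaf1 call came from its dimmer probe set, which passed the testing level only through DBA_F1. With 1 array left out the count was 1 to 3, the median member difference 0.12 to 0.23, the members at an unadjusted p under 0.05 toward AKR_F1 7 to 14, and the members with groups apart 13 to 19. Members at that unadjusted p numbered 1 with the adipose covariate. The matching shares of all genes in these fits are not given here. With 2 arrays in a group, groups are apart more easily for any gene, so the 13 to 19 cannot be set against 14.2%. Over all genes, 707 probe sets were called, 1198 with array weights, 254 with the squamous covariate, 85 with AKR_F1 replicates 1 and 2 left out, 3 with the adipose covariate and 198 to 1171 with 1 array left out. Dropping AKR_F1 replicate 3 gave the 1171 calls, dropping AKR_F1 replicate 1 or 2 gave 198 or 199, and dropping DBA_F1 replicate 2 gave 249. Several calls outside the members were lost in other fits. Without the trend these were Stat3 (limma adjusted p = 0.0937), Ifitm1 (0.0806), Sftpb (0.0782) and Csf1r (0.102). With no filter they were Stat3 (0.051) and Csf1r (0.0586), and with quantile normalization Ifitm1 (0.0608). All of these and Lgals9 were lost with the squamous or the adipose covariate.

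Replicate numbers did not pair the arrays. Deviations from the group means correlated at 0.31, -0.23 and -0.050 between same-numbered arrays, and 2 of 6 arrays correlated best with their own number. With the replicate block 539 probe sets were called, the Xaf1 call was kept, and the calls of the second Dtx3l probe set (adjusted p = 0.0679), Stat3 (0.086), Ifitm1 (0.106) and Csf1r (0.11) were lost.

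Signs turned for Xaf1 with the mean of its probe sets (-1.53) or the most variable one (-3.97), as their construction sets. Ifi35 turned with the mean of its probe sets (-0.0022). With the adipose covariate Ifit3 (-0.15), Trim25 (-0.090), Oas2 (-0.043), Oasl1 (0.33), Oasl2 (-0.20), Rsad2 (0.043), Cmpk2 (-0.39), Ifi35 (-0.036) and Ifi27l2a (0.19) turned. The adipose mean does not overlap between the groups, so that fit separates it poorly from the group difference. Oasl2 turned with quantile normalization (-0.0060) and array weights (-0.013), and Eif2ak2 with AKR_F1 replicates 1 and 2 left out (-0.025) or the squamous covariate (-0.027). With 1 array left out Trim25 ran from -0.0087 to 0.12, Oasl1 from -0.17 to 0.047, Oasl2 from -0.033 to 0.065 and Eif2ak2 from -0.072 to 0.10. Apart from Xaf1, none of these turned values was called, and the cause was not tested.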
